A study of Homo sapiens with 16 samples.

Results

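The comparison asks which messenger RNAs (mRNAs) sit on polysomes to a different extent in H69M and in H69, 2 lines labelled as small cell lung cancer cells. It uses the 8 libraries of cells carrying the control hairpin shNTC, out of 16 libraries in the series: cytoplasmic and polysomal RNA of H69 shNTC and of H69M shNTC, with 2 libraries in each of the 4 groups. For every gene, loading was the log2 ratio of polysomal to cytoplasmic RNA, and the difference was the loading in H69M minus that in H69. All groups are stable lentiviral hairpin lines grown in RPMI medium with fetal bovine serum. The shNTC cells are labelled wild type and untreated. The other 8 libraries come from the same lines carrying sheIF6, a hairpin against EIF6. They serve here as a second measurement of the line difference, with no library in common but with the fitted spread of each gene shared.

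A polysome is an mRNA with several ribosomes on it, which sediments further in a sucrose gradient than free mRNA or a single ribosome. The share of an mRNA found there is widely used as a measure of how actively it is translated. Coding length bears on it, since a longer reading frame holds more ribosomes at the same initiation rate. The mRNAs of ribosomal proteins and several translation factors begin with a run of pyrimidines, the TOP motif (terminal oligopyrimidine), and are known to move on and off polysomes with growth signalling through mTOR. EIF6 sits on the large subunit where the small one docks, and its release allows the ribosome to assemble.

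The shNTC libraries held 36005326 to 47197218 counts. INSM1, a transcription factor that marks neuroendocrine small cell lung cancer, stood at 857 to 2216 CPM (counts scaled to the size of each library) in the H69 libraries and at 1.15 to 256 CPM in H69M. YAP1, which marks the non-neuroendocrine state, was at 0 to 0.468 CPM in H69 and 196 to 273 CPM in H69M. The H69M polysomal replicate 2 carried more INSM1 (256 CPM) than replicate 1 (6.38 CPM). The H69 cytoplasmic replicate 1 carried 17.9 CPM of VIM, against 0 to 1.66 CPM in the other H69 libraries. Over 22 genes specific to H69M, its reads came to 0.0806% of their H69M level, and to 0 in the other H69 libraries. EIF6, the gene the other hairpin targets, was at 65.0 to 234 CPM in H69 sheIF6 against 112 to 424 CPM in H69 shNTC. In H69M it was at 86.3 to 161 CPM with sheIF6 against 165 to 323 CPM with shNTC. Nothing in the labels says that replicates were separate cultures, and each line is a single line. The p-values therefore reflect spread among these libraries, which may be technical.

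No single gene passed the test, but the 2 lines differed in a pattern that followed mRNA length, by coding sequence or by whole transcript. Long mRNAs were loaded more in H69M than in H69, and short ones less. Of 23100 genes tested, 0 were higher (0%) and 0 were lower (0%) in H69M at a Benjamini-Hochberg adjusted p under 0.05 by edgeR's quasi-likelihood test. At an unadjusted p under 0.05, 1165 genes (5.04%) were higher and 962 (4.16%) were lower. DESeq2 called 147 higher and 47 lower, and limma-voom 0 in either direction. The edgeR fit had little power: in simulated data it found only 5 of 50 genes given a 4-fold change. Its counts of 0 therefore do not show that loading was alike. Because many genes are nearly silent in 1 line, the description that follows keeps to 12584 genes measured in both lines, with a mean of at least 1 CPM in each line and line means within 8-fold of each other. Among these, 635 (5.05%) were higher and 821 (6.52%) lower at an unadjusted p under 0.05, 0 passed the adjusted test, and DESeq2 called 104 higher and 44 lower. Setting each polysomal against each cytoplasmic library gives 4 ratios per line, and those of H69M all lay above those of H69 for 1432 genes (11.4%) and below them for 1927 (15.3%).

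Replicate numbers were taken to pair the polysomal and cytoplasmic libraries of a line, because same-numbered ones deviated together. The correlations were 0.276 with shNTC and 0.172 with sheIF6 in H69, and 0.578 and 0.172 in H69M. A fit that holds each numbered pair as a block called 71 genes higher (0.307%) and 4 lower (0.0173%) over all genes. Among genes measured in both lines it called 30 higher (0.238%) and 2 lower (0.0159%). Same-numbered libraries of a line also deviated together across the hairpins, with correlations of 0.168 to 0.280, a range that only H69M shNTC exceeded. A block that joins them, by number within each line, called only 2 genes higher (0.0159%) and 1 lower (0.00795%) among genes measured in both lines. Loading itself was alike in much of the transcriptome: across 12584 genes, Spearman's rho between the loading of H69 and of H69M was 0.666, over libraries that share no cells but share gene length and base composition. Both values are relative to the other RNAs of a library. In bulk RNA, fewer cells with an mRNA on polysomes and fewer copies on polysomes in each cell cannot be told apart.

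Coding lengths were available for 10977 of the genes measured in both lines, which were split into 4 length classes of about equal size. In the shortest class, at or under 879 nucleotides, the median difference was -0.44 on the log2 scale. It was -0.25 in the class up to 1410 nucleotides, -0.01 in that up to 2229 nucleotides, and 0.42 in the longest class. The difference was above 0 for 21.0% of the 2746 genes in the shortest class and for 80.6% of the 2744 in the longest. Genes at an unadjusted p under 0.05 followed the same order: the longest class held 454 that were higher in H69M and 15 that were lower, and the shortest held 21 higher and 466 lower. Across genes, which are not independent replicates, Spearman's rho of the difference was 0.534 with coding length and 0.558 with the length of the whole transcript.

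By coding length, the 2 lines bent in opposite directions. In H69, median loading was 0.21 in the shortest class, 0.34 in the next, 0.12 in the next and -0.23 in the longest. In H69M the same classes stood at -0.19, 0.14, 0.17 and 0.32. Split into 10 bins, the longest bin, with a median coding length of 4707 nucleotides, gave -0.32 and -0.46 in the pairs of H69 and 0.39 and 0.43 in those of H69M. The shortest bin, with a median of 408 nucleotides, gave -0.19 and 0.21 in the pairs of H69 and -0.49 and -0.43 in those of H69M. Thus the loading of the shortest bin was below that of the next bins in both lines, and the lines parted most at the long end. The opposite bending depended on the measure of length. Over 4 classes of whole-transcript length, median loading in H69 fell from 0.52 to 0.34, 0.01 and -0.38. In H69M it stood at 0.05, 0.18, 0.08 and 0.08, with a Spearman's rho of 0.026.

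**Figure D1:**
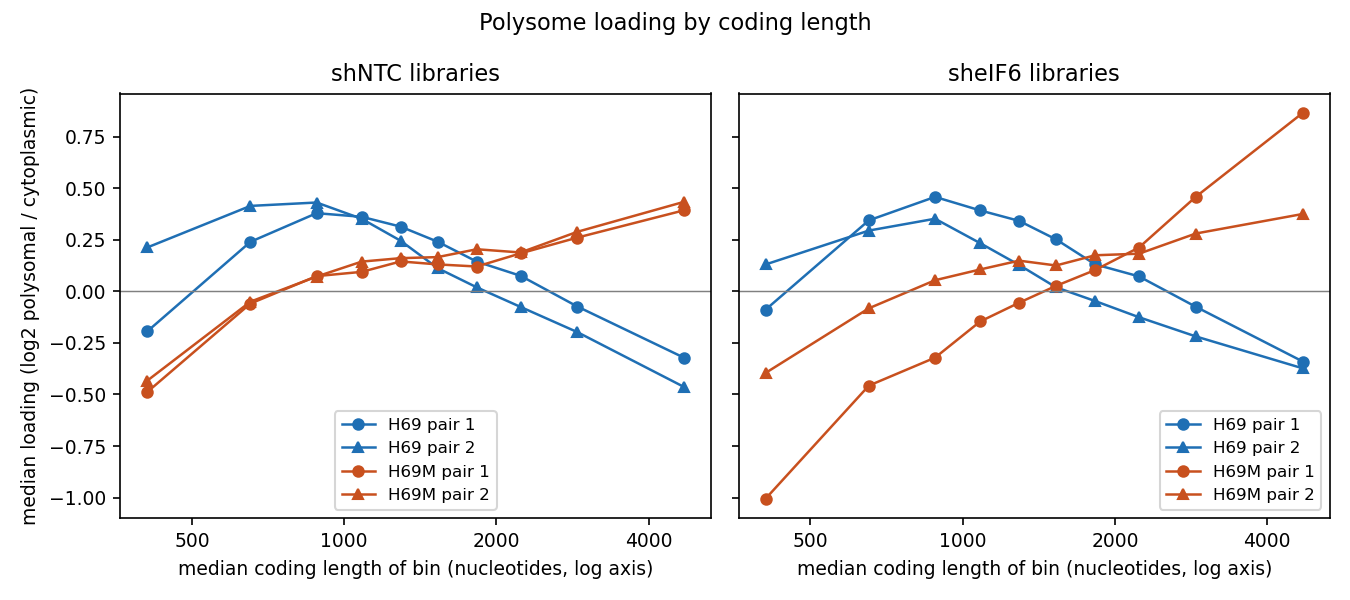
Median loading (log2 of polysomal over cytoplasmic CPM) of genes measured in both lines, in 10 bins of coding length (log axis, nucleotides), with a line for each numbered pair of libraries, for shNTC on the left and sheIF6 on the right. H69M is lowest in the shortest bin and highest in the longest in all 4 pairs, and the shNTC pairs of H69 fall from the third bin on to -0.32 and -0.46.

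The length pattern was carried by the polysomal libraries. With each gene centred on its mean over the 16 libraries, the longest class stood 0.55 and 0.44 above the shortest (log2) in the H69M shNTC polysomal libraries. In the H69 shNTC polysomal libraries it stood at -0.18 and -0.55. The 4 cytoplasmic shNTC libraries lay between -0.04 and 0.14. With sheIF6, polysomal libraries gave -0.26 and -0.59 in H69 and 0.64 and 0.43 in H69M. A single cytoplasmic library stood apart, replicate 1 of H69M sheIF6, at -0.60.

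**Figure D2:**
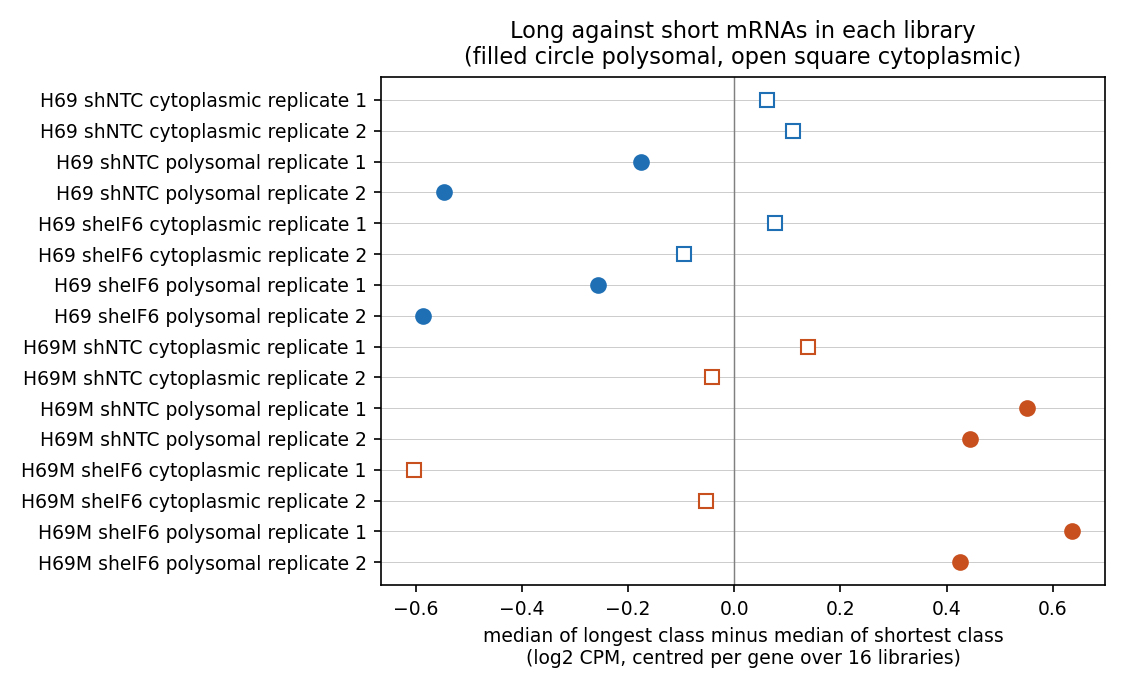
Median of the longest class of genes minus median of the shortest class in each of the 16 libraries (log2 CPM, each gene centred over the libraries), with polysomal libraries as filled circles and cytoplasmic ones as open squares. Polysomal libraries of H69 lie between -0.59 and -0.18 and those of H69M between 0.43 and 0.64.

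Taken as 1 value per numbered pair, loading of the longest minus the shortest class was -0.24 and -0.63 in H69 shNTC and 0.50 and 0.56 in H69M shNTC. The groups did not overlap, and with 2 pairs against 2 the exact two-sided permutation test gave p = 0.333, the smallest it can give. The sheIF6 pairs gave -0.33 and -0.50 in H69 and 1.18 and 0.51 in H69M. Over both hairpins the mean was -0.43 ± 0.17 (SD, n = 4) in H69 and 0.69 ± 0.33 (SD, n = 4) in H69M, a difference of 1.11. With the line labels permuted within each hairpin, the exact two-sided permutation test gave p = 0.0556, the smallest it can give. Because same-numbered libraries deviated together across hairpins, the 4 pairs of a line are not 4 separate replicates. With the hairpins averaged to 1 value per number, the exact permutation p was again 0.333. The difference was thus seen in every pair, in a design too small to pass the threshold. Without the H69M sheIF6 pair that holds the cytoplasmic library standing apart, the difference was 0.95. The pattern in the shNTC medians was 0.851 with all 8 libraries, 0.901 without H69M polysomal replicate 2 and 0.875 without H69 cytoplasmic replicate 1. The share of counts on mitochondrial genes was 4.93% and 5.32% in H69 cytoplasmic and 2.96% and 4.30% in H69M cytoplasmic RNA, and 0.330% to 1.31% in the polysomal libraries, where the lines overlapped. Its part in the pattern was not tested.

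Other features of the mRNA followed the difference less closely. Spearman's rho across the 10977 genes was 0.303 with the length of the 3′ untranslated region and 0.037 with that of the 5′ untranslated region. Loading itself fell with 3′ untranslated length in both lines, with a rho of -0.365 in H69 and -0.157 in H69M. The GC content of the coding sequence had a rho of -0.010 with the difference, while its rho with loading was 0.434 in H69 and 0.480 in H69M. GC-rich mRNAs were thus the better loaded ones in both lines. Over 4 GC classes, the median loading in H69 was 0.45 in the highest class and -0.43 in the lowest, and in H69M it was 0.38 and -0.46.

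Since no gene passed the test, 6 genes in each direction were ranked by unadjusted p among those whose loading did not overlap between the lines. The 6 on the higher side encode large proteins, with coding lengths of 6681 to 14586 nucleotides. HERC1 (chr15:63608618-63833942, GRCh38, minus strand), a giant ubiquitin ligase, stood at 96.8 and 99.5 CPM in H69 cytoplasmic RNA and at 67.1 and 68.9 CPM in H69 polysomal RNA. In H69M it stood at 72.7 and 59.5 CPM in cytoplasmic and 268 and 184 CPM in polysomal RNA. The mRNA was thus scarcer on polysomes than in the cytoplasm of H69 and more abundant there in H69M, a difference of 2.31 (SE 0.35, edgeR adjusted p = 0.161, 0.0215 with the pair block).

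DYNC1H1 (chr14:101964510-102056443, plus strand), the heavy chain of the dynein motor, was at 337 and 344 CPM in H69 cytoplasmic and 290 and 320 CPM in H69 polysomal RNA. In H69M its cytoplasmic values were 702 and 438 CPM and its polysomal values 2898 and 1894 CPM. Both H69M polysomal libraries stood above all other shNTC libraries, and the difference was 2.23 (SE 0.39, edgeR adjusted p = 0.167, 0.0210 with the pair block). TRRAP (chr7:98877933-99050831, plus strand), a scaffold of histone acetyltransferase complexes, was at 122 and 135 CPM in H69 cytoplasmic and 79.0 and 83.0 CPM in H69 polysomal RNA. Its H69M values were 98.6 and 133 CPM in cytoplasmic and 281 and 388 CPM in polysomal RNA. That gave a difference of 2.20 (SE 0.39, edgeR adjusted p = 0.167, 0.0210 with the pair block), with cytoplasmic levels that overlapped between the lines.

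PRPF8 (chr17:1650629-1684882, minus strand), the core protein of the spliceosome, was at 111 and 120 CPM in H69 cytoplasmic and 107 and 71.6 CPM in H69 polysomal RNA. It was at 86.7 and 88.6 CPM in H69M cytoplasmic and 251 and 335 CPM in H69M polysomal RNA. Its difference was 2.12 (SE 0.34, edgeR adjusted p = 0.167, 0.0245 with the pair block). RTTN (chr18:70003031-70205945, minus strand) and PCNT (chr21:46324122-46445769, plus strand) encode centrosome proteins. RTTN had loadings of -0.81 and -0.74 in the H69 pairs and 1.02 and 0.80 in the H69M pairs (edgeR adjusted p = 0.167, 0.0342 with the pair block). PCNT had -0.42 and -0.64 in H69 and 1.16 and 1.04 in H69M (edgeR adjusted p = 0.167, 0.0419 with the pair block). For all 6, both H69 pairs were below 0 and both H69M pairs above it. With the block within line, TRRAP (edgeR adjusted p = 0.0326) and PRPF8 (0.0331) still passed, while HERC1 (0.0574) and DYNC1H1, RTTN and PCNT (0.0746 each) did not.

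The 6 genes on the lower side have coding lengths of 516 to 1089 nucleotides. TCEAL4 (chrX:103576231-103587736, plus strand), of a family of proteins related to transcription elongation factor A, was at 25.5 and 35.5 CPM in H69 cytoplasmic and 70.9 and 70.2 CPM in H69 polysomal RNA. In H69M it was at 103 and 94.2 CPM in cytoplasmic and 54.9 and 48.8 CPM in polysomal RNA. The mRNA was thus enriched on polysomes in H69 and depleted there in H69M, a difference of -2.13 (SE 0.30, edgeR adjusted p = 0.117, 0.0210 with the pair block and 0.0497 without H69 cytoplasmic replicate 2). MYL12A (chr18:3247481-3256236, plus strand), a regulatory light chain of nonmuscle myosin, was at 133 and 124 CPM in H69 cytoplasmic and 258 and 286 CPM in H69 polysomal RNA. Its H69M values were 899 and 939 CPM in cytoplasmic and 602 and 640 CPM in polysomal RNA. More of this mRNA was present in H69M, at a lower polysomal-to-cytoplasmic ratio, a difference of -1.65 (SE 0.28, edgeR adjusted p = 0.167, 0.0458 with the pair block). With the block within line, TCEAL4 passed (edgeR adjusted p = 0.0331) and MYL12A did not (0.0746).

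NSA2 (chr5:74766991-74780113, plus strand) is a factor in the maturation of the large ribosomal subunit. It was at 94.6 and 91.9 CPM in H69 cytoplasmic and 241 and 220 CPM in H69 polysomal RNA. In H69M it was at 105 and 142 CPM in cytoplasmic and 104 and 103 CPM in polysomal RNA, a difference of -1.56 (SE 0.30, edgeR adjusted p = 0.205, 0.0514 with the pair block). Cytoplasmic NSA2 was thus the lower one in H69 and polysomal NSA2 the higher one. HCCS (chrX:11111301-11123078, plus strand) attaches heme to cytochrome c, and its loading was 1.49 and 1.45 in the H69 pairs and 0.13 and -0.01 in the H69M pairs (edgeR adjusted p = 0.228). SNRNP35 (chr12:123457641-123473154, plus strand), of the minor spliceosome, had 1.64 and 1.85 in H69 and 0.09 and 0.20 in H69M (edgeR adjusted p = 0.228). PCBP2 (chr12:53452102-53481162, plus strand), an RNA-binding protein with KH domains, had 0.75 and 0.70 in H69 and -1.15 and -0.48 in H69M (edgeR adjusted p = 0.281). These last 4 did not pass with the pair block either. Of the 12 ranked genes, the pair block thus called 8, the block within line 3 and DESeq2 all 12.

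**Figure D3:**
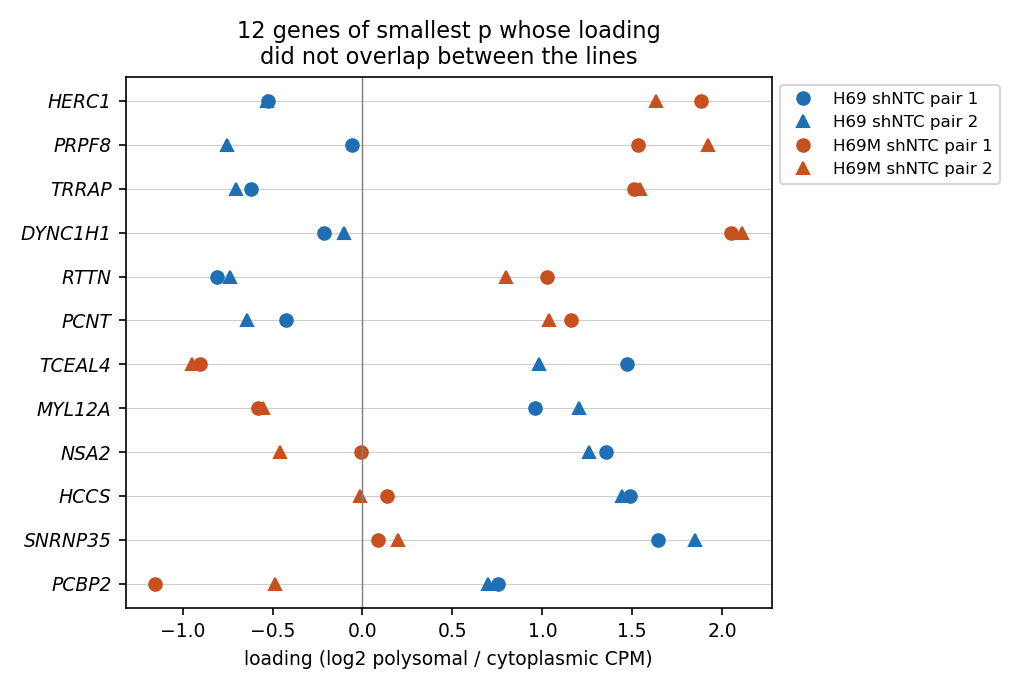
Loading (log2 of polysomal over cytoplasmic CPM) of the 12 ranked genes in the 4 numbered shNTC pairs, H69 in blue and H69M in orange. For HERC1 the H69 pairs sit at -0.53 and -0.53 and the H69M pairs at 1.88 and 1.63, and for TCEAL4 the order is turned, with 1.47 and 0.98 in H69 and -0.90 and -0.95 in H69M.

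Of the 30 genes called higher with the pair block and measured in both lines, 27 lay in the longest class of coding length and the other 3 are clone names without a coding length. Among the clones, RP11-449K6.5 (14.8) and RP11-566K11.2 (13.4) had 0 CPM in both H69 polysomal libraries, so their values rest on 0 counts. The 27 include giant ubiquitin ligases and their relatives: HUWE1 (1.71 with the block), UBR4 (1.91), HERC2 (2.17), HECTD4 (1.99) and RNF213 (2.17). Kinases of the PI3-kinase-like family also belong to them: PRKDC (2.24), which acts in DNA repair, and MTOR (1.41), whose loading was -0.22 and -0.27 in the H69 pairs and 1.17 and 1.15 in the H69M pairs. HTT, the huntingtin gene, was above 0 in both lines, with 0.37 and 0.26 in H69 and 1.68 and 1.78 in H69M. Cell-surface and matrix proteins are represented by FAT1 (2.14), RELN (2.44), FRAS1 (1.97), ADGRV1 (2.03) and SORL1 (1.71). URB1 (1.72) and MDN1 (1.83) act in making the large ribosomal subunit. The 2 genes called lower with the block, TCEAL4 and MYL12A, lay in the shortest class.

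Ribosomal protein mRNAs are short, and their difference was below that of most genes. The lists here were chosen with earlier results of these data known, so their counts are descriptions. Start sites of members are shown because a pyrimidine run at the start is what sets TOP mRNAs apart. Each line gives the 30 bases from 10 before to 20 after the gene start in RefSeq (GRCh38.p14), 5′ to 3′ on the gene's own strand, with capitals marking a run that covers the first base of the annotated start, begins with C and goes on with at least 6 further C or T. They are 4 ribosomal protein and 2 other TOP genes with such a run and low differences in H69M, followed by 2 mitochondrial ribosomal protein genes with no such run anywhere in the window.
RPL29 (chr3:51995876-51995905, minus strand): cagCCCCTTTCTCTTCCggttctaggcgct
RPL35 (chr9:124861938-124861967, minus strand): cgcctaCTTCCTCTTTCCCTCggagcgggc
RPS9 (chr19:54200848-54200877, plus strand): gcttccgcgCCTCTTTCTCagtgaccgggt
RPL35A (chr3:197950180-197950209, plus strand): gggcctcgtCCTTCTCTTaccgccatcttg
BTF3 (chr5:73498432-73498461, plus strand): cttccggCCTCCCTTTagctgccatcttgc
TPT1 (chr13:45341164-45341193, minus strand): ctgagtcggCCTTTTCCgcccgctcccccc
MRPL28 (chr16:370519-370548, minus strand): caggcgcggcagatcggcttccggttccgg
MRPL22 (chr5:154941063-154941092, plus strand): tccagaaggcgcttgaactcggcggcttcc

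A run covering the start was found, on the gene's strand only, in 24 of 38 matched large-subunit and 19 of 25 matched small-subunit ribosomal protein genes, in 0 of 45 matched mitochondrial ribosomal protein genes and in 4.91% of all 27305 RefSeq start windows of this length. A run anywhere in the window was found in 29 of the large-subunit, 22 of the small-subunit and 4 of the mitochondrial ribosomal protein genes, and in 14.7% of all windows. Within the shortest class of coding length the median difference was -0.49 for 347 genes with a run anywhere in the window and -0.45 for the other matched genes. In the longest class the medians were 0.42 with a run and 0.41 without. Runs were thus more frequent in ribosomal protein genes, while genes with and without a run anywhere in the window had close medians in these classes. Of the 347 genes with a run in the shortest class, 166 had it over the start. The difference of genes with a run over the start was not examined separately.

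The 47 large-subunit ribosomal protein mRNAs had a median difference of -0.85 against -0.04 over all genes measured in both lines. Of these, 46 were below 0, and at an unadjusted p under 0.05 15 (31.9%) were lower and 0 higher. Over all genes measured in both lines 6.52% were lower at that p, and in the shortest class of coding length 16.97% were. Their median loading was 0.25 and 0.83 in the H69 pairs and -0.35 and -0.37 in the H69M pairs, so that the lines lay on opposite sides of 0. RPL15, a large-subunit protein, was at 315 and 280 CPM in H69 cytoplasmic and 661 and 722 CPM in H69 polysomal RNA. Its H69M values were 353 and 420 CPM in cytoplasmic and 364 and 387 CPM in polysomal RNA, a difference of -1.26 (SE 0.35, edgeR adjusted p = 0.359). Cytoplasmic RPL15 was thus slightly lower in H69 and polysomal RPL15 higher. RPL29 had the lowest difference of the list, at -1.43 (SE 0.43, edgeR adjusted p = 0.389).

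The 32 small-subunit ribosomal protein mRNAs had a median difference of -0.82, with all 32 below 0, and 6 (18.8%) lower and 0 higher at an unadjusted p under 0.05, a share near that of the shortest class. The median was -0.53 without H69 polysomal replicate 2. FAU, which encodes a small-subunit protein fused to a ubiquitin-like one, was at 275 and 257 CPM in H69 cytoplasmic and 565 and 809 CPM in H69 polysomal RNA. Its H69M values were 180 and 249 CPM in cytoplasmic and 276 and 265 CPM in polysomal RNA, a difference of -1.03 (SE 0.39, edgeR adjusted p = 0.469). The 20 other TOP mRNAs had a median of -0.46, with 2 (10%) lower at an unadjusted p under 0.05: BTF3, a chaperone of new proteins (-1.15), and TPT1, a growth-related protein (-0.98). The elongation factors EEF1A1, EEF1D and EEF2 were at -0.22 (SE 0.39), -0.38 (SE 0.34) and 0.04 (SE 0.32). Ribosomal protein genes have many processed copies in the genome, and how reads shared with them were counted is not given in the sources used here.

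Short mRNAs of mitochondrial complexes also had low medians. The 48 nuclear oxidative phosphorylation mRNAs had a median difference of -0.84, with 47 below 0, and 23 (47.9%) lower and 0 higher at an unadjusted p under 0.05. ATP5C1, a subunit of ATP synthase, was at 79.2 and 81.3 CPM in H69 cytoplasmic, 227 and 204 CPM in H69 polysomal, 86.6 and 99.2 CPM in H69M cytoplasmic and 108 and 127 CPM in H69M polysomal RNA. It was thus enriched on polysomes in both lines, and less so in H69M (-1.09, SE 0.31, edgeR adjusted p = 0.383). All 53 mitochondrial ribosomal protein mRNAs were below 0, with a median of -0.72 and 21 (39.6%) lower and 0 higher at an unadjusted p under 0.05. MRPL14 had the lowest value, -1.57 (SE 0.40, edgeR adjusted p = 0.357). The share lower at an unadjusted p under 0.05 was 6.52% over all genes measured in both lines. It was 16.97% in the shortest class of coding length, which holds the median lengths of both lists (444 and 597 nucleotides).

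The 31 proteasome mRNAs had the lowest median of the 25 lists, -0.93, with 28 below 0, and 16 (51.6%) lower and 0 higher at an unadjusted p under 0.05. The share lower at that p was 6.52% over all genes measured in both lines. It was 9.26% in the class of coding length up to 1410 nucleotides, which holds the list's median length of 975. PSMD7, a subunit of the proteasome's regulatory particle, was at 68.2 and 63.2 CPM in H69 cytoplasmic and 175 and 139 CPM in H69 polysomal RNA. Its H69M values were 92.2 and 93.6 CPM in cytoplasmic and 112 and 109 CPM in polysomal RNA, a difference of -1.004 (SE 0.27, edgeR adjusted p = 0.357). The list's median loading was above 0 in each pair, at 1.48 and 1.27 in H69 and 0.68 and 0.41 in H69M.

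Translation initiation factors had a median difference of -0.47, with 26 of 32 below 0, and 6 (18.8%) lower and 0 higher at an unadjusted p under 0.05. The share lower at that p was 6.52% over all genes measured in both lines. It was 9.26% in the class of coding length up to 1410 nucleotides, which holds the list's median length of 1173. EIF5B, the GTPase that joins the ribosomal subunits, had the lowest difference of the list although its coding length is 3663 nucleotides. It was at 106 and 136 CPM in H69 cytoplasmic, 129 and 105 CPM in H69 polysomal, 108 and 134 CPM in H69M cytoplasmic and 48.4 and 29.8 CPM in H69M polysomal RNA. Its cytoplasmic levels were thus alike in the lines and its H69M polysomal levels the lowest (-1.57, SE 0.39, edgeR adjusted p = 0.357). EIF3G (-1.27), EIF3I (-1.21) and EIF3J (-1.01), which belong to or bind the initiation factor that recruits the small subunit, were also lower, each with an edgeR adjusted p of 0.357 or above.

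EIF6 itself was at 116 and 112 CPM in H69 cytoplasmic and 424 and 389 CPM in H69 polysomal RNA. In H69M it was at 204 and 165 CPM in cytoplasmic and 323 and 202 CPM in polysomal RNA. Its loading was therefore high in H69, at 1.87 and 1.79, and lower without overlap in H69M, at 0.66 and 0.29, a difference of -1.32 (SE 0.42, edgeR adjusted p = 0.405). SBDS, which helps release EIF6 from the large subunit, had loadings of 0.93 and 0.63 in H69 and -0.18 and -0.26 in H69M, a difference of -1.01 (SE 0.31, edgeR adjusted p = 0.389). In the list of EIF6 and its partners, with 13 measured members including EIF6 itself, the median was -0.51. At an unadjusted p under 0.05, 4 (30.8%) were lower, EIF6 and SBDS among them, and 0 higher. Over all genes measured in both lines, 6.52% were lower at that p, and in the shortest class of coding length 16.97% were. The 4 lower members, with coding lengths of 720 to 849 nucleotides, lie in that class. MRTO4, a nucleolar protein of large-subunit assembly, was at -0.996 (SE 0.33). The list's median was -0.16 without H69M polysomal replicate 2 and -0.80 without H69M polysomal replicate 1. Removing the trend of log2 CPM on transcript length, described below, left EIF6 at -0.78, SBDS at -0.55 and the list's median at -0.36.

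Nucleolar ribosome biogenesis factors were mixed, with a median of -0.32 and both directions present: 4 of 28 (14.3%) were lower and 2 (7.14%) higher at an unadjusted p under 0.05. Among all genes measured in both lines, 6.52% were lower and 5.05% higher at that p. In the class of coding length up to 2229 nucleotides, which holds the list's median length of 1708.5, 1.87% were lower and 2.34% higher. The list's median difference was -0.12 without H69 polysomal replicate 1 and -0.51 without H69 polysomal replicate 2. The 2 higher ones encode large proteins, UTP20 (8358 nucleotides, 1.49, SE 0.32, edgeR adjusted p = 0.281) and POLR1A, the largest subunit of RNA polymerase I (5163 nucleotides, 1.04, SE 0.26, edgeR adjusted p = 0.344). UTP20 was at 91.4 and 76.6 CPM in H69 cytoplasmic, 46.2 and 48.0 CPM in H69 polysomal, 56.5 and 60.5 CPM in H69M cytoplasmic and 92.0 and 92.1 CPM in H69M polysomal RNA. Polysomal UTP20 thus lay below cytoplasmic in H69 and above it in H69M.

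All 22 splicing factor mRNAs with poison exons were below 0, with a median of -0.56 and 6 (27.3%) lower and 0 higher at an unadjusted p under 0.05. HNRNPD was at -0.92 (SE 0.31), LUC7L3 at -1.04 (SE 0.35) and SRSF3 at -0.86 (SE 0.30). Glycolysis mRNAs had a median of -0.46, with 2 of 17 (11.8%) lower, endoplasmic reticulum chaperones and translocon parts -0.42, with 6 of 29 (20.7%) lower, and cytosolic chaperones -0.41, with 1 of 20 (5%) lower, at an unadjusted p under 0.05. Against 6.52% of all genes, the cytosolic chaperone count was no higher than the background. In the endoplasmic reticulum list, SEC62, a translocon subunit of 1200 coding nucleotides, had -1.31 (SE 0.31, edgeR adjusted p = 0.326). The glycolysis median was -0.15 without H69 polysomal replicate 1, the endoplasmic reticulum median -0.06 without H69M cytoplasmic replicate 2 and the cytosolic chaperone median -0.06 without H69 polysomal replicate 1.

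**Figure D4:**
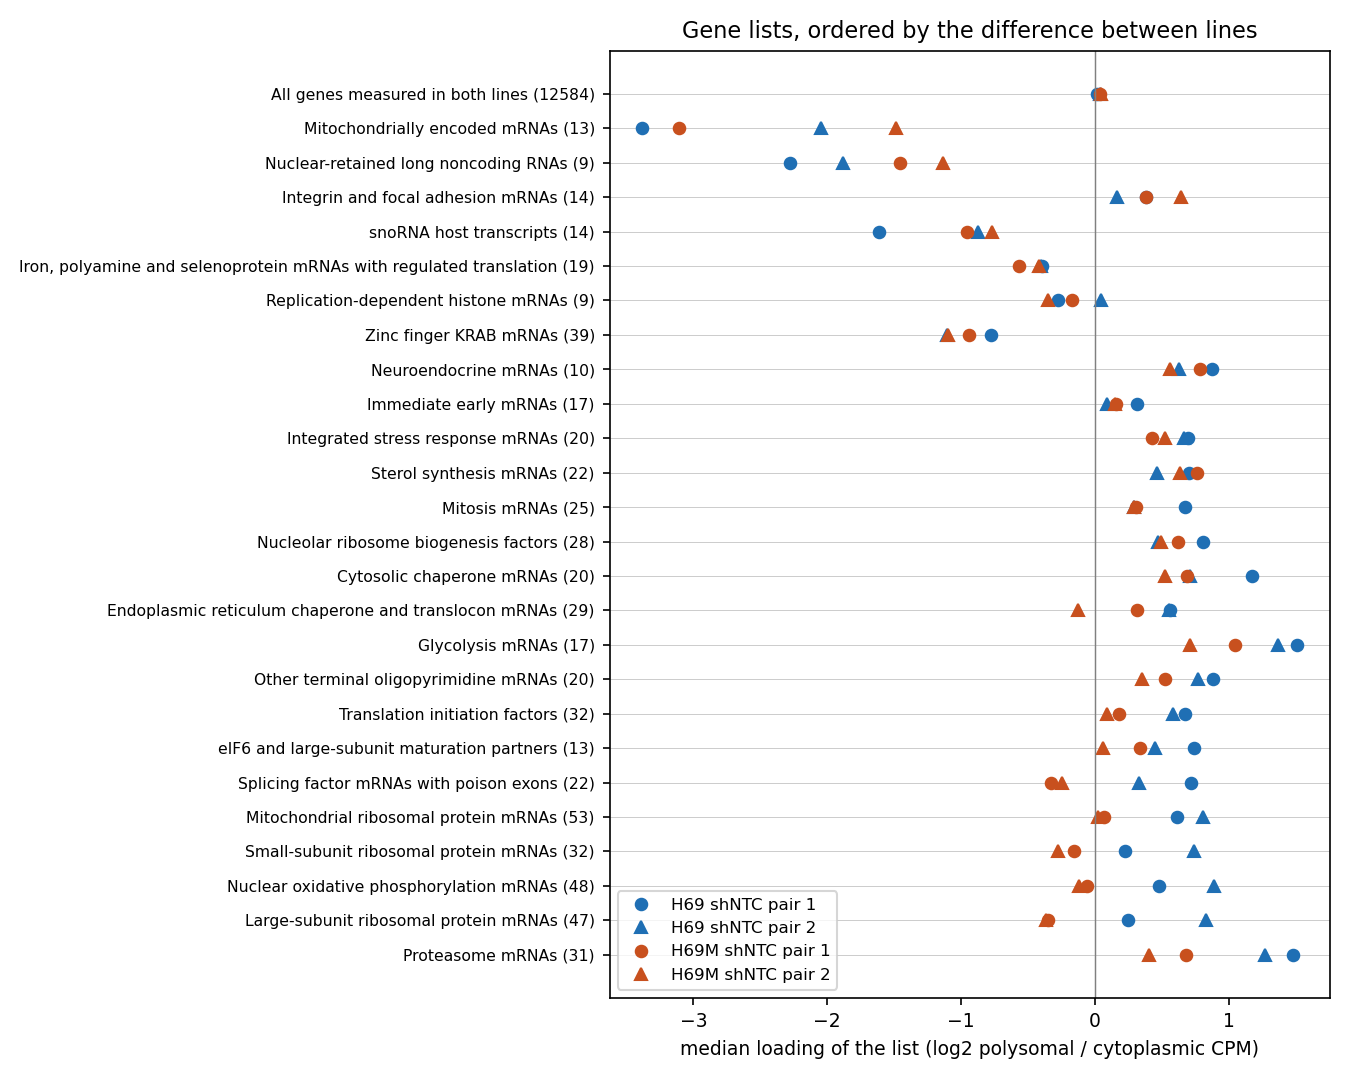
Median loading of each gene list (log2 of polysomal over cytoplasmic CPM) in the 4 numbered shNTC pairs, H69 in blue and H69M in orange, with the number of members measured in both lines in parentheses and the list of lowest difference at the bottom. In the lower rows both H69 pairs lie to the right of both H69M pairs, as for proteasome mRNAs at 1.48 and 1.27 against 0.68 and 0.41.

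A few lists stood on the other side. Integrin and focal adhesion mRNAs had a median of 0.36 over 14 members, with 3 (21.4%) higher and 1 lower at an unadjusted p under 0.05, against 5.05% higher over all genes. Their median coding length was 2674.5 nucleotides, which lies in the longest class. In that class 16.5% were higher at that p and the median difference was 0.42, so the list was near its length class. The list's median was 0.22 without either of the H69M polysomal libraries. TLN1, the talin that links integrins to actin, was at 162 and 166 CPM in H69 cytoplasmic, 194 and 182 CPM in H69 polysomal, 645 and 733 CPM in H69M cytoplasmic and 1400 and 2261 CPM in H69M polysomal RNA. More TLN1 mRNA was thus present in H69M, and its polysomal-to-cytoplasmic ratio was higher there (1.21, SE 0.32, edgeR adjusted p = 0.357). TNS3 (1.08, SE 0.33) and LAMA3 (1.19, SE 0.40), an adaptor and a laminin chain with coding lengths of 4338 and 10002 nucleotides, were the other higher ones, and ILK, a pseudokinase of adhesion sites, was at -1.15 (SE 0.50).

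RNAs encoded in mitochondria or retained in the nucleus were scarce in polysomal RNA. The 13 mitochondrially encoded mRNAs, read inside mitochondria, were depleted from polysomal RNA in both lines, with median loadings of -3.38 and -2.05 in the H69 pairs and -3.10 and -1.48 in the H69M pairs. The pairs overlapped, 0 of 13 had an unadjusted p under 0.05, and the median difference of 0.65 became -0.60 without H69M polysomal replicate 2. Nuclear-retained long noncoding RNAs had -2.27 and -1.88 in H69 and -1.46 and -1.13 in H69M, with 1 of 9 higher at an unadjusted p under 0.05. That 1 was OIP5-AS1 (1.29, SE 0.42, edgeR adjusted p = 0.417). Where it overlaps its antisense partner, reads of the 2 may not have been told apart, as the strand setting is not given. Transcripts that host small nucleolar RNAs had median loadings of -1.61 and -0.87 in the H69 pairs and -0.96 and -0.77 in the H69M pairs. The list includes protein-coding RACK1 and TAF1D, with loadings of 1.53 and -1.40 in H69 and of 0.66 and -1.05 in H69M. Its median difference was 0.32, with 0 of 14 on either side at an unadjusted p under 0.05. That median was -0.05 without H69 polysomal replicate 1 and 0.87 without H69 polysomal replicate 2, so its sign rested on single libraries.

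Several other groups had medians near that of all genes with the 8 libraries, but most of these moved when 1 library was left out. The integrated stress response list had a median of -0.14, iron, polyamine and selenoprotein mRNAs 0.02, replication-dependent histones -0.02, immediate early mRNAs -0.08, sterol synthesis -0.17, mitosis -0.20, neuroendocrine mRNAs -0.05 and KRAB zinc finger mRNAs -0.02. Without H69M polysomal replicate 1 the medians were -1.17 for the integrated stress response, -0.69 for immediate early and -0.69 for neuroendocrine mRNAs, and without H69M cytoplasmic replicate 1 they were 0.87, 0.51 and 0.42. Sterol synthesis and mitosis had -0.83 and -0.65 without H69M polysomal replicate 2, and 0.39 and 0.16 without H69M cytoplasmic replicate 2. Histones ranged from -0.30 to 0.42, iron, polyamine and selenoprotein mRNAs from -0.16 to 0.14, and KRAB zinc finger mRNAs from -0.28 to 0.07. No direction can be given for these groups. ATF4, a transcription factor read through upstream reading frames, had loadings of -0.77 and 0.05 in H69 and 0.70 and -0.17 in H69M, which overlapped. MYC overlapped as well, with 0.32 and -0.36 in H69 and 0.27 and -0.04 in H69M. FTH1 and FTL, the ferritin subunits controlled by iron through their 5′ ends, differed more between the H69 pairs (-2.29 and -0.55, and -2.50 and -0.62) than between the lines. ODC1 (0.02, SE 0.26), CDKN1A (-0.31, SE 0.32), PABPC1 (0.29, SE 0.30) and CD44 (0.24, SE 0.73) overlapped between the lines too.

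Among common reference mRNAs, GAPDH had loadings of 1.79 and 1.80 in H69 and 1.05 and 0.31 in H69M, with no overlap (-1.10, SE 0.49, edgeR adjusted p = 0.527). ACTB had 1.41 and 1.23 in H69 and 0.42 and 0.28 in H69M. Its difference was -1.004 (SE 0.60, edgeR adjusted p = 0.657), and the 4 ratios of the lines overlapped. OAZ1, read through a frameshift, did not overlap, at -0.40 and 0.41 in H69 and -0.98 and -0.69 in H69M (-0.84, SE 0.44). VIM was not measured in both lines.

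The sheIF6 libraries gave the same contrast in the same lines with the other hairpin. No gene measured in both lines passed there either, with 0 higher and 0 lower by edgeR, 1143 higher (9.08%) and 1753 lower (13.9%) at an unadjusted p under 0.05, and 495 and 693 by DESeq2. With the pair block 433 were higher (3.44%) and 461 lower (3.66%). Of the 635 genes higher with shNTC at an unadjusted p under 0.05, 631 were above 0 with sheIF6, and of the 821 lower, 820 were below 0, against 83.5% of the same sign over all 12584. All 12 ranked genes kept their sign. The higher lists shared 515 genes, 81.1% of the shNTC list and 45.1% of the sheIF6 list, and the lower lists shared 741, 90.3% and 42.3%, where 9.08% and 13.9% of all genes were in the sheIF6 lists. Since same-numbered libraries of a line deviated together across the hairpins, the contrasts are not fully separate measurements. Both p-values of a gene also rest on the same estimate of its spread, from all 16 libraries. Genes of low spread can thus enter both lists, which can raise the overlap above these shares. A direct test of shNTC against sheIF6 called 0 of 23100 genes by edgeR, with 213 higher and 171 lower at an unadjusted p under 0.05.

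The length pattern was there as well, with medians by coding-length class of -0.67, -0.37, -0.01 and 0.56. List medians were further from 0 with sheIF6 for large-subunit (-1.48) and small-subunit (-1.57) ribosomal proteins, oxidative phosphorylation (-1.42), mitochondrial ribosomal proteins (-1.16) and proteasome mRNAs (-1.21). The difference in these medians between hairpins was not tested. In the H69M sheIF6 pairs, RPL15 had loadings of -1.31 and -0.15, with the first from the pair whose cytoplasmic library stood apart.

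**Figure D5:**
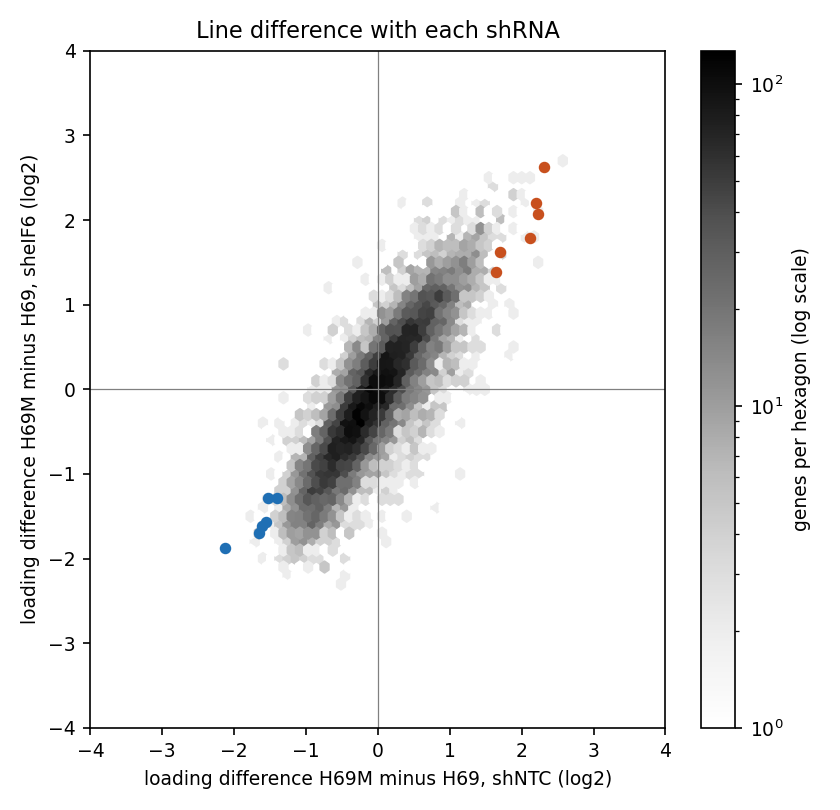
Loading difference H69M minus H69 (log2) with shNTC on the horizontal axis and with sheIF6 on the vertical axis, for genes measured in both lines, as counts per hexagon, with the 6 ranked higher genes in orange and the 6 ranked lower genes in blue. The cloud runs along the diagonal, and 20 genes lie outside the plotted range of 4 in either direction.

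To see which values remain once length is set aside, the trend of log2 CPM on transcript length was removed within each library, a step chosen after seeing the data. The contrast between the longest and the shortest coding class went from 0.851 to 0.325. At an unadjusted p under 0.05, 443 genes (3.52%) were then higher and 453 (3.6%) lower among those measured in both lines, and 0 passed the adjusted edgeR test. The median of large-subunit ribosomal protein mRNAs became -0.32, of small-subunit ones -0.13, of mitochondrial ribosomal proteins -0.19, of oxidative phosphorylation -0.29 and of proteasome mRNAs -0.44, against 0.04 over all genes. Splicing factors with poison exons moved less, from -0.56 to -0.42, and initiation factors went to -0.19.

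With both length removed and the pair block, 16 genes measured in both lines were called higher (0.127%) and 8 lower (0.0636%). The 16 again include the clones RP11-449K6.5 and RP11-566K11.2, with 0 CPM in both H69 polysomal libraries. HERC1 (1.44), TRRAP (1.44), PRKDC (1.45), VPS13C (1.33), FAT1 (1.30) and RELN (1.73) were among the higher ones. So were ID2, an inhibitor of helix-loop-helix transcription factors with a coding length of only 405 nucleotides (1.76), and POLR2A, the largest subunit of RNA polymerase II (1.45). The POLR2A value rests on a transcript length of 2083 nucleotides, from the sole transcript that GENCODE v29 marks as protein coding for this gene. A longer POLR2A transcript there is not marked as coding, so the length trend removed may be too small for it. ID2 had loadings of -0.11 and 0.14 in the H69 pairs and 1.22 and 1.59 in the H69M pairs, and with sheIF6 0.05 and -0.03 in H69 against 0.71 and 0.65 in H69M. The lower ones were TCEAL4 (-1.67), NSA2 (-1.64), SEC62 (-1.62), PURA (-1.55), SCO1 (-1.46), CCPG1 (-1.44), SDHC (-1.37) and EIF4E (-1.36). Before the trend was removed, PURA was at -0.84, SCO1 at -0.86, SDHC at -0.58 and EIF4E at -0.67, so the removal itself enlarged these 4 by more than 1.5 times. The trend removed may also be wrong where the annotated transcript is longer than the one expressed, which was not tested. NSA2, for example, was given a transcript of 4594 nucleotides for a coding length of 783. PRPF8, DYNC1H1, RTTN, PCNT and MYL12A, called with the pair block alone, were no longer called. EIF4E, which binds the mRNA cap, had loadings of -0.05 and -0.16 in the H69 pairs and -0.71 and -0.82 in the H69M pairs.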

How the data were processed

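Cytoplasmic RNA of detergent lysates and RNA of polysome fractions from sucrose gradients were sequenced, per the labels' protocols, which name a NEBNext Ultra kit. The gradient fractions pooled, the strand setting and the treatment of multi-mapped reads are not given in the sources used here. The authors deposited raw counts per gene, and the submitters' processing notes name STAR, HTSeq and GRCh38 without versions. The 16 libraries were fitted as 8 groups with edgeR 4.0.16 in R 4.3.3 (quasi-likelihood test, TMM scaling, filterByExpr with a minimum count of 10, Benjamini-Hochberg over 23100 of 56832 genes, 8 residual degrees of freedom). Loading per pair is a difference of log2 CPM with a prior count of 2. Coding and transcript lengths and coordinates came from GENCODE v29, with 11390 of 12584 genes matched by symbol. The lengths are those of a single transcript per gene, the longest coding one of the best annotation rank. They can understate or overstate the length of the transcript expressed. Start windows came from RefSeq.

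Polysomal and cytoplasmic libraries of the same line, hairpin and number deviated together from their group means (correlation 0.172 to 0.578 in the 4 pairs), so the numbers were taken to pair them within a line. Same-numbered libraries of a line and different hairpin did so too (0.168 to 0.280), so a block by number within line is given beside the pair block. Between the lines same-numbered groups had -0.107 to 0.0457. Replicates of a group differed beyond sampling noise (chi-square per degree of freedom 36.3 to 159 in shNTC). Alternatives were RLE and library-size scaling, other filters, DESeq2 1.42.0, limma-voom (limma 3.58.1), a fold threshold, replicate blocks, shNTC libraries alone and leaving out each library. The fit was tested on simulated data.

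Ranked genes had no overlap of loading, at least 100 counts in the higher fraction of each line and a gene name other than a clone or noncoding name, and were the 6 of smallest p per direction, since none passed. A fixed panel of 17 genes was added. Members named from lists, from the blocked fit and from the fit with length removed were picked after their values were seen. The comparison, the lists and the panel were chosen with earlier results of these data known.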

Additional observations from a re-analysis of the deposited data

Results flagged for a closer look

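Over both hairpins the longest-minus-shortest contrast of loading differed between H69M and H69 by 1.11 (log2), below 0 in all 4 pairs of H69 and above 0 in all 4 of H69M. Permuting the lines within each hairpin gave an exact two-sided p of 0.0556, and 1 value per replicate number gave 0.333, each the smallest possible, so the difference is not shown by a test. In H69M, the sheIF6 pair 1 lay far above the other 3 pairs, at 1.18 against 0.50 to 0.56, a gap of 0.920 of the whole range. Chance marks about 1 in 20 such groups.

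For 4 lists the median loading was above 0 in both H69 shNTC pairs and below 0 in both H69M pairs, a contrast that was not tested. They were large-subunit ribosomal protein mRNAs (difference -0.85), small-subunit ones (-0.82), nuclear oxidative phosphorylation mRNAs (-0.84) and splicing factor mRNAs with poison exons (-0.56).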

How the results depend on the processing

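The length contrast kept its sign under every alternative run. The main counts, being 0 both ways, had no direction that could reverse. Some list medians and single genes changed sign when 1 library was left out. Examples are mitochondrially encoded mRNAs (0.65 to -0.60) and ATF4 (0.84 to -0.70). Counts of genes called at an adjusted p under 0.05, 0 in each direction by edgeR, moved with the method. Over all genes, DESeq2 called 147 higher and 47 lower, the replicate block within line 7 and 2, the replicate block by numbered pair 71 and 4, and the paired block with the length trend removed 75 and 9. Without a low-count filter 1 gene was lower. Among genes measured in both lines the same settings gave 104 and 44, 2 and 1, 30 and 2, and 16 and 8. A block by number across all groups called 0. For the sheIF6 contrast they gave 495 and 693, 212 and 260, 433 and 461, and 28 and 23, and 1 higher without a filter. The cause of these moves was not tested.

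Leaving out each shNTC library in turn gave 0 to 5 higher and 0 to 3 lower genes, with 5 and 3 without H69 cytoplasmic replicate 2 and 2 lower without H69M polysomal replicate 1, and 0 and 0 to 2 among genes measured in both lines. Leaving out each sheIF6 library gave 0 to 253 higher and 0 to 442 lower, with 253 and 442 without H69M sheIF6 cytoplasmic replicate 2, 103 and 168 without H69M sheIF6 polysomal replicate 2, and 4 higher without H69 sheIF6 polysomal replicate 1. The length contrast of 0.851 lay between 0.701 and 1.015 when 1 library was left out, and was 0.325 with the length trend removed, by construction smaller, with or without the paired block. With crossed replicate numbers the contrast over both hairpins was 1.10. Under library-size scaling the median over all genes shifted by 0.0808. In the 2-library groups, leaving 1 out assumes that the lone library varies like the others.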

Other observations

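By gene type, 170 long noncoding RNAs measured in both lines had a median difference of 0.28, 201 pseudogenes 0.02 and 10986 protein-coding genes -0.07. Median loading of the long noncoding RNAs was -0.88 in H69 and -0.50 in H69M, and that of protein-coding genes 0.11 and 0.10.

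Outside the genes measured in both lines, the paired block called FABP7, a fatty acid binding protein, at 2.67, NEUROD4, a neuronal transcription factor, at 3.48, SCGN at 2.78, CADPS at 2.30 and SV2B at 2.92 among those higher in H69M. They were either under 1 CPM in a line or more than 8-fold apart between the lines.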
